A study of Mus musculus with 8 samples.

Results

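The genes that decide the fate of mitochondrial pyruvate were followed in gonadal white fat of Rap1-/- and wild-type (WT) mice. The 10 genes were Pdha1, Pdhb and Dlat of the pyruvate dehydrogenase complex, its inhibitory kinases Pdk1, Pdk2, Pdk3 and Pdk4, its activating phosphatase Pdp2, pyruvate carboxylase Pcx and phosphoenolpyruvate carboxykinase Pck1. Members were all non-control probes whose RefSeq transcript belongs to one of these genes, which gave 12 of 55681 array probes, or 10 of the 19752 genes with a symbol. Pdhb and Pdp2 each had a second probe. Of the 12 probes, 11 were well above background on all 8 arrays, and every gene was tested.

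RAP1, encoded by Terf2ip, is a telomere-binding protein that also occupies sites along chromosome arms. Samples of fat from Rap1-/- mice (4) and WT mice (4) were hybridised, with 1 array per sample, all at 10 weeks of age on a mixed background of 90% C57BL6 and 10% 129SV. The study took females of similar body weight, before obesity begins in the mutants. The Rap1-/- mice were whole-body constitutive knockouts, made by deleting a floxed Rap1 allele with a cre driven by the adenovirus EIIa promoter, so every tissue lacks the protein and a direct role in adipocytes is not isolated. The labels name no treatment for either genotype. They do not state whether the mice were littermates, or fed or fasted.

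Pyruvate made by glycolysis enters the mitochondrion and has 2 main exits. The pyruvate dehydrogenase complex converts it irreversibly to acetyl-CoA, and pyruvate carboxylase converts it to oxaloacetate. In fat cells the acetyl-CoA feeds citrate export and fatty acid synthesis, and the oxaloacetate both refills the tricarboxylic acid (TCA) cycle and supplies glyceroneogenesis through Pck1, which makes the glycerol backbone for triglyceride re-esterification. The 4 kinases phosphorylate and shut the E1 subunit, the phosphatases reopen it, and Pdk4 is the kinase that fasting and fatty acids classically induce.

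The signal at each array's 75th percentile ranged from 302 to 497 intensity units, and 59.7% to 65.2% of spots were well above background with 0 saturated. In all, 25065 genes or transcribed features were tested. All values below are log2 processed signals minus that percentile, so 1 unit is a doubling, and they compare arrays within a probe, not probes with each other. The deleted gene was read by 2 Terf2ip probes. The signal of A_52_P381806 did not clear background on any of the 4 Rap1-/- arrays and did so on all 4 WT arrays, at least 50.5-fold lower in Rap1-/- (measured means -7.43 ± 0.21 in Rap1-/-, 0.26 ± 0.18 in WT, SD, limma adjusted p = 1.90e-07). The bound sets the WT mean against the dimmest signals that clear background on the Rap1-/- arrays. A_55_P2094079 moved the other way (0.97 ± 0.09 in Rap1-/-, -1.41 ± 0.10 in WT, SD, limma adjusted p = 6.63e-05). The first probe thus fits a loss of Terf2ip in Rap1-/-, and the second read higher there, also without overlap of the genotypes. Why the second read higher was not tested. Where the 2 probes lie relative to the deleted stretch is not given in the sources used here. All 10 adipocyte markers, among them Adipoq, Plin1 and Fabp4, were bright enough to be tested, as the tissue label implies.

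The start regions of 5 members are shown because these genes take the main positions in the results: Pdk4 has the largest positive difference, Pcx the largest negative one, Pdk1 and Pdhb vary across arrays with Pcx, and Pck1 differs least. Each is the 250 bases before the RefSeq start in GRCm38.p6, read 5′ to 3′ on the gene's strand. The windows are chr6:5496279-5496528 (minus strand) for Pdk4, chr19:4510222-4510471 (plus) for the first of 2 Pcx entries, chr2:71872974-71873223 (plus) for the first of 2 Pdk1 entries, chr14:8172993-8173242 (minus) for Pdhb and chr2:173152823-173153072 (plus) for Pck1. Capitals mark CCAAT (bound by NF-Y), GGGCGG (the GC box), CACGTG (an E-box that USF and clock factors bind) and ACGTCA (part of the cAMP response element), on either strand.
Pdk4: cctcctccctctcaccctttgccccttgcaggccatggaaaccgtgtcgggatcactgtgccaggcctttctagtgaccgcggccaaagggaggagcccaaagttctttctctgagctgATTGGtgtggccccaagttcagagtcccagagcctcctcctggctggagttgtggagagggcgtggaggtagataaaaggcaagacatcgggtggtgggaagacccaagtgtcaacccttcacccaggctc
Pcx: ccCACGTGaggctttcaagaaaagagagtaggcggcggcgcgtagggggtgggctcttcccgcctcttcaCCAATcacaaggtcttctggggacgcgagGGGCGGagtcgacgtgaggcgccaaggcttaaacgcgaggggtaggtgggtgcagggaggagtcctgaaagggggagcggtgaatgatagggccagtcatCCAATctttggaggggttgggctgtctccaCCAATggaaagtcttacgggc
Pdk1: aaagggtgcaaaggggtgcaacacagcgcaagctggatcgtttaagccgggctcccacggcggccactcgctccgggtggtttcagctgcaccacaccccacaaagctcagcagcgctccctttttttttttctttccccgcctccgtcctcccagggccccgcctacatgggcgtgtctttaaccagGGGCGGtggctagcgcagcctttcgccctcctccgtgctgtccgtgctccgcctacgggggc
Pdhb: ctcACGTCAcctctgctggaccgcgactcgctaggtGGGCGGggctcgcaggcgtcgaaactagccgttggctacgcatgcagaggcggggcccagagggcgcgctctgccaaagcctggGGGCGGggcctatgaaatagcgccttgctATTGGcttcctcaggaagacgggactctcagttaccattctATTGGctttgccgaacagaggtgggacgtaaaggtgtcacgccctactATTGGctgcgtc
Pck1: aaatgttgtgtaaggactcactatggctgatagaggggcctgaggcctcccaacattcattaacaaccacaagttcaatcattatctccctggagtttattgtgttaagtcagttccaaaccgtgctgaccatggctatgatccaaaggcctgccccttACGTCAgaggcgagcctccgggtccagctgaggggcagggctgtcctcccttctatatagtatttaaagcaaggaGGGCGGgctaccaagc

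All 10 members had a promoter entry, 13 entries in all. CCAAT or its complement ATTGG stood in 6 of the 13 windows, against 33.8% of all 32851 windows of this length. GGGCGG or CCGCCC stood in 7 of 13 (32.7% of all windows), CACGTG in 3 of 13 (6.02%) and ACGTCA or TGACGT in 2 of 13 (6.47%). Pcx carried 3 CCAAT, 1 GGGCGG and 1 CACGTG match, Pdhb 3 ATTGG, 2 GGGCGG and 1 ACGTCA, Pdk1 only 1 GGGCGG, and Pdk4 only 1 ATTGG. The E-box was found at Pcx, Pdk2 and Pdp2. Pck1 carried 1 ACGTCA, within its well-known cAMP response element, and 1 GGGCGG. The TATA box TATAAA (12.4% of all windows) and AGGTCA (14.0%), the core of nuclear receptor elements, were searched on both strands too and stood in 0 of the 13. A match describes letters, not binding, and no match says only that these letters are not in the window.

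The central comparison asked whether the switch between oxidising, carboxylating and sparing pyruvate differs with genotype. None of the 10 members passed an adjusted p of 0.05 in the limma fit over all genes (0 of 10, against 0.00399% of all genes and features). That share was 1 gene, the deleted Terf2ip itself, read on A_55_P2094079. At an unadjusted limma p under 0.05 there were 3 of 10, Pcx, Pdk4 and Pdp2, against 4.98% of all. That count was 0 without WT replicate 1, and 1 without Rap1-/- replicate 1, Rap1-/- replicate 2 or WT replicate 3. The mean was lower in Rap1-/- for 7 of 10, with 59.9% of all genes lower. That split depends on the scaling: with median scaling 7 of 10 members and 41.5% of all genes had the lower mean, with quantile normalisation 7 of 10 and 49.4%, with the deposited values 7 of 10 and 49.4%, and with E1A scaling 6 of 10 and 15.6%. The median difference was -0.34 over the members and -0.04 over all genes. With E1A scaling these were -0.13 and 0.18, and without WT replicate 1 they were -0.21 and -0.03. The arrays of the genotypes overlapped for all 10 members, and did not overlap for 3.26% of all genes. A two-sided exact permutation test over the 70 assignments of the arrays can reach 0.0286, and the smallest member p was 0.0571, for Pcx.

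**Figure D1:**
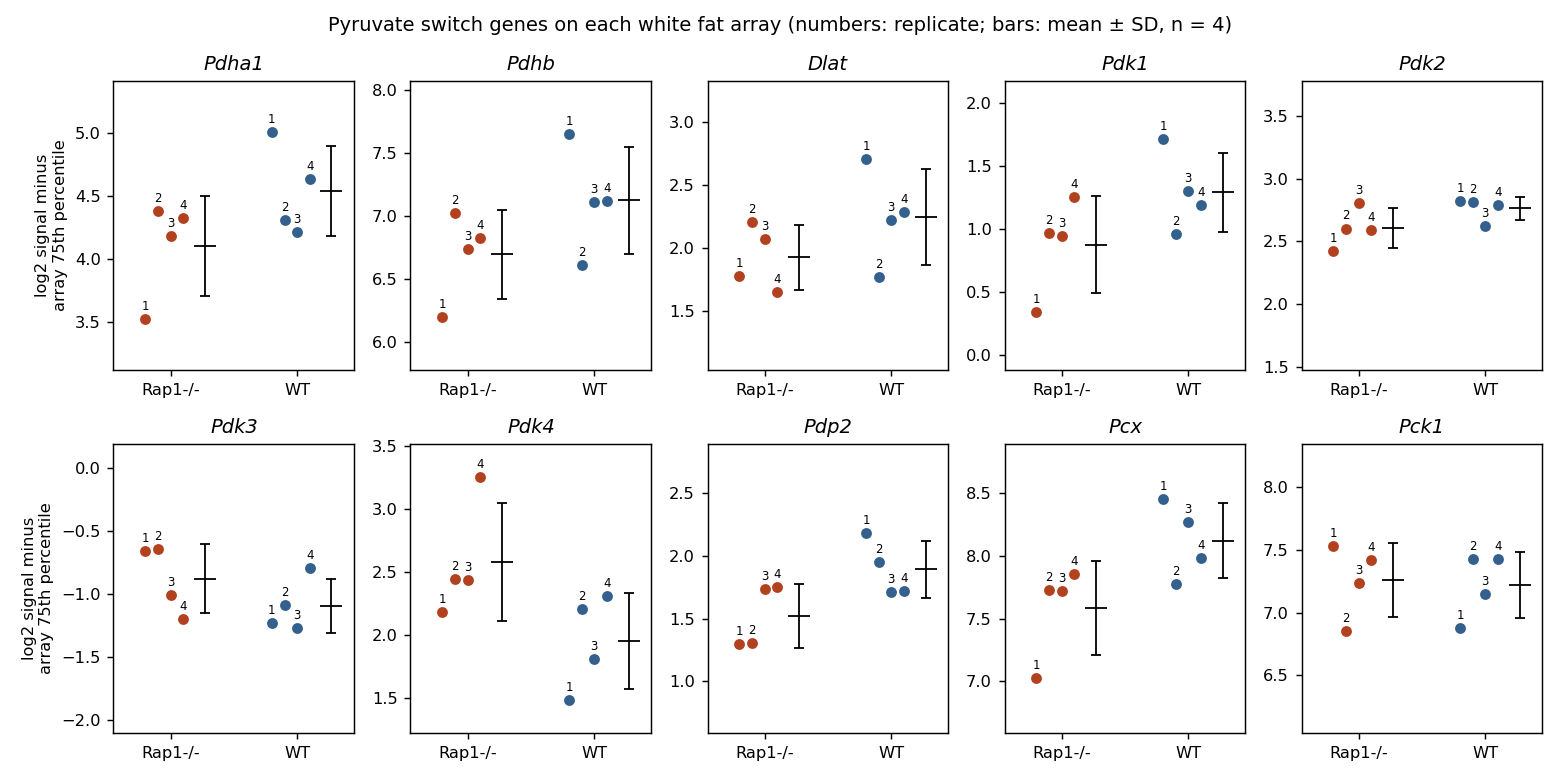
Signal of the 10 genes on each array (y axis: log2 processed signal minus the array's 75th percentile, brightest probe, the same span of 2.3 units in every panel), with Rap1-/- left and WT right, points numbered by replicate and bars giving mean ± SD (n = 4). The genotypes overlap in every panel; Rap1-/- replicate 1 is the lowest and WT replicate 1 the highest point for Pdha1, Pdhb, Pdk1, Pdk2, Pdp2 and Pcx.

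The dehydrogenase itself had lower means in Rap1-/- in each subunit measured, within the spread of arrays. Pdha1 encodes the E1 alpha subunit, the one the kinases phosphorylate, and lies on the X chromosome. Its values were 3.52, 4.38, 4.18 and 4.32 in Rap1-/- fat, against 5.01, 4.31, 4.21 and 4.63 in WT fat. Only Rap1-/- replicate 1 lay clearly below the WT arrays and WT replicate 1 clearly above the rest. The difference was -0.44 ± 0.24 (SE, limma adjusted p = 0.874, 95% interval -0.99 to 0.11). It was -0.25 without Rap1-/- replicate 1 and -0.28 without WT replicate 1, and -0.71 within slide 1 and -0.17 within slide 2.

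Pdhb, the E1 beta subunit, read 6.20, 7.02, 6.73 and 6.82 in Rap1-/- on its brighter probe, against 7.65, 6.61, 7.11 and 7.12 in WT (difference -0.43 ± 0.24, limma adjusted p = 0.874). Again WT replicate 1 was highest and Rap1-/- replicate 1 lowest, but WT replicate 2 was the second lowest of the 8. Without Rap1-/- replicate 1 the difference was -0.26 and without WT replicate 1 it was -0.25. Its other probe read 5.26, 6.21, 5.83 and 5.86 in Rap1-/-, against 6.87, 5.80, 6.30 and 6.28 in WT, with a difference of -0.52 ± 0.26 (SE). The 2 probes of Pdhb thus gave the same direction. Dlat, the E2 core that passes the acetyl group to coenzyme A, read 1.77, 2.20, 2.07 and 1.65 in Rap1-/-, against 2.70, 1.77, 2.22 and 2.28 in WT (difference -0.32 ± 0.21, limma adjusted p = 0.878). Here Rap1-/- replicate 4 and not replicate 1 was lowest. Without WT replicate 1 the difference was -0.17, and with E1A scaling it was -0.11.

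The other parts of the complex, taken as a list of 5, gave little more. Pdha2, the testis form, was not well above background on any array and Pdpr did not pass the filter. Pdhx, the E3-binding protein, averaged 1.79 ± 0.35 in Rap1-/-, against 2.09 ± 0.36 in WT (SD, n = 4 each, limma adjusted p = 0.880). Dld, the E3 subunit shared with other dehydrogenases, averaged 3.72 ± 0.10 and 3.88 ± 0.24 (adjusted p = 0.886). Pdp1, the calcium-stimulated phosphatase, averaged 0.67 ± 0.13 in Rap1-/-, against 0.47 ± 0.15 in WT (adjusted p = 0.874). In the main fit the lower mean in Rap1-/- was thus shared by the subunits Pdha1, Pdhb, Dlat, Pdhx and Dld, with 59.9% of all genes lower. With E1A scaling the median of this list, -0.16 in the main fit over its 3 tested genes, turned to 0.05.

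The 4 kinases did not move together. Pdk4, the starvation-induced isoform, read 2.18, 2.45, 2.44 and 3.26 in Rap1-/-, against 1.48, 2.21, 1.81 and 2.31 in WT. All 4 Rap1-/- arrays lay above the WT mean, but Rap1-/- replicate 1 stood below 2 WT arrays. The difference was 0.63 ± 0.27 (SE), or 1.55-fold, with an unadjusted limma p of 0.0451 and an adjusted p of 0.874 (95% interval 0.02 to 1.24, exact permutation p = 0.0857). It rested partly on Rap1-/- replicate 4, without which it was 0.40. Within slide 1 it was 0.47 and within slide 2 it was 0.79, with 2 arrays of each genotype on each. On both slides the WT arrays lay at positions 1 and 2 and the Rap1-/- arrays at positions 3 and 4. For all genes, genotype and position on the slide therefore cannot be told apart, also within a slide.

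Pdk1, the isoform that hypoxia induces and that phosphorylates the most sites of E1, read 0.34, 0.97, 0.95 and 1.25 in Rap1-/-, against 1.72, 0.96, 1.30 and 1.19 in WT (difference -0.42 ± 0.22, limma adjusted p = 0.874). The sign was opposite to that of Pdk4. The difference was -0.24 without Rap1-/- replicate 1 and -0.28 without WT replicate 1, and -0.68 within slide 1 and -0.15 within slide 2. Pdk2, a broadly expressed kinase, read 2.43, 2.60, 2.81 and 2.59 in Rap1-/-, against 2.82, 2.81, 2.62 and 2.79 in WT. The 8 arrays lay close together, with a difference of -0.16 ± 0.10 (limma adjusted p = 0.878, 95% interval -0.39 to 0.08). Within slide 1 it was -0.30 and within slide 2 it was -0.01, and with E1A scaling it turned to 0.06. Pdk3 read -0.66, -0.64, -1.01 and -1.20 in Rap1-/-, against -1.23, -1.09, -1.27 and -0.79 in WT. This gave 0.22 ± 0.16 (limma adjusted p = 0.881), made up of 0.51 within slide 1 and -0.07 within slide 2.

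Pdp2, a phosphatase that reactivates E1, read 1.30, 1.31, 1.74 and 1.75 in Rap1-/- on its brighter probe, against 2.18, 1.95, 1.71 and 1.72 in WT. The difference was -0.37 ± 0.16 (SE, unadjusted limma p = 0.0482, adjusted p = 0.874, exact permutation p = 0.171). Within slide 1 it was -0.76 and within slide 2 it was 0.03. The other Pdp2 probe was dim, from -5.23 to -4.22 in Rap1-/- and from -4.56 to -4.08 in WT, and was not well above background on 1 of 4 Rap1-/- arrays (difference -0.22 ± 0.23). Pdp2 lies on chromosome 8, as does the deleted Terf2ip, with 120 tested genes between them.

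Pcx, the mitochondrial carboxylase that refills oxaloacetate and is abundant in adipocytes, read 7.03, 7.73, 7.72 and 7.86 in Rap1-/-, against 8.45, 7.77, 8.27 and 7.98 in WT. The 4 Rap1-/- arrays all lay below the WT mean, and only Rap1-/- replicate 4 exceeded a WT array. The difference was -0.54 ± 0.22 (SE), a 1.45-fold lower signal, with an unadjusted limma p of 0.0370 and an adjusted p of 0.874 (95% interval -1.03 to -0.04). Without Rap1-/- replicate 1, the lowest array, it was -0.35. Within slide 1 it was -0.73 and within slide 2 it was -0.34.

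Pck1, which turns oxaloacetate into phosphoenolpyruvate for glycerol synthesis, was the member nearest to no difference. It read 7.53, 6.86, 7.24 and 7.42 in Rap1-/-, against 6.88, 7.43, 7.15 and 7.42 in WT (difference 0.04 ± 0.18, limma adjusted p = 0.983, 95% interval -0.38 to 0.46). Each genotype held arrays from the lowest to the highest part of the range. Pcx and Pck1, both enzymes of glyceroneogenesis, thus had differences of -0.54 and 0.04, and the difference between them was not tested.

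**Figure D2:**
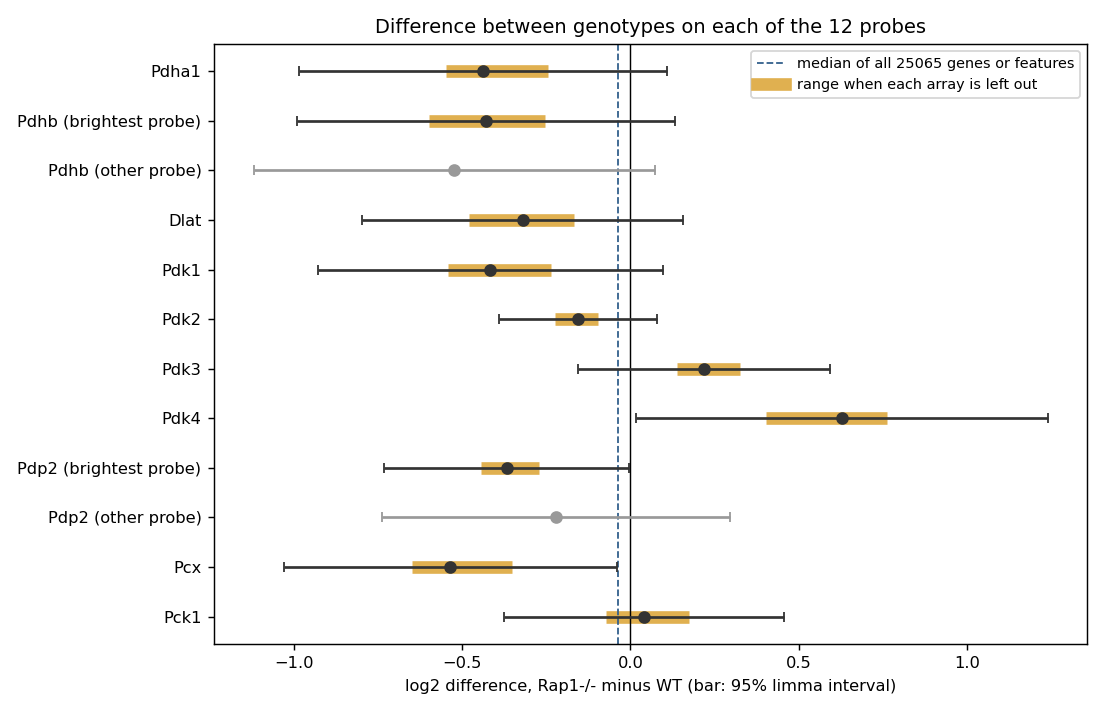
Log2 difference between genotypes (x axis: Rap1-/- minus WT) for each of the 12 probes, with 95% limma intervals, the range of values when each array is left out in turn (broad bands, for the brightest probe of each gene) and the median of all genes (dashed line). Only the intervals of Pdk4, the brighter Pdp2 probe and Pcx exclude 0, and no band crosses 0 except that of Pck1.

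Some members moved together across the arrays. On the 8 arrays Pdk1 and Pcx correlated at Pearson r = 0.97 (Spearman rho = 0.95, exact permutation p = 0.000223 and 0.00114, n = 8), with Benjamini-Hochberg adjusted p-values of 0.00949 and 0.0485 over the 85 relations computed. Without the 2 arrays farthest from the median, r was 0.84, and within genotype 0.97. Pdhb and Pdk1 gave r = 0.93 (rho = 0.86, exact permutation p = 0.00310, adjusted p = 0.0439), and 0.58 without the 2 farthest arrays. Pdhb and Pcx gave r = 0.92 (rho = 0.86, exact permutation p = 0.00298, adjusted p = 0.0439), and 0.65 without them. Both of these relations rest largely on Rap1-/- replicate 1 and WT replicate 1. Pdhb and Dlat gave r = 0.86 (rho = 0.83, exact permutation p = 0.00734, adjusted p = 0.0700), 0.92 without the 2 farthest arrays and 0.82 within genotype.

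Pdhb, Pdk1 and Pcx also followed the fatty acid synthesis genes. Against the mean of the 17 genes of citrate export, NADPH supply and lipogenesis, Pdhb correlated at r = 0.98 (rho = 0.98, exact permutation p = 0.000149 and 0.000397, adjusted 0.00949 and 0.0337, n = 8), and still at 0.97 without the 2 farthest arrays. Pcx gave r = 0.96 (rho = 0.88, exact permutation p = 0.000471, adjusted 0.0134) and 0.78 without them, and Pdk1 gave 0.97 (rho = 0.90, exact permutation p = 0.00139, adjusted 0.0295) and 0.72. Pdha1 gave 0.94 (rho = 0.71, exact permutation p = 0.00464, adjusted 0.0563), but 0.46 without the 2 farthest arrays, so its relation rests on them. Dlat gave 0.78 (rho = 0.81, exact permutation p = 0.0260, adjusted 0.138) and 0.69 without the 2 farthest arrays. Of the 85 relations, 6 had an adjusted Pearson p under 0.05 and 2 an adjusted Spearman p under 0.05. Within genotype the values were 0.97 for Pdhb, 0.95 for Pcx, 0.95 for Pdk1 and 0.92 for Pdha1. Within slide they were 0.98, 0.97, 0.97 and 0.95 in the same order, and with scaling to the spiked-in E1A controls 0.97, 0.97, 0.95 and 0.91. The share of all genes with relations this close was not computed, so none is shown to be particular to these members. Other list means, described below, were also lowest on Rap1-/- replicate 1 and highest on WT replicate 1. As differences from the mean of the 8 arrays they were -0.47 and 0.45 for pyruvate supply and lactate exchange. They were -0.18 and 0.24 for the TCA cycle.

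Pck1, Pdk3 and Pdk4 had values of the opposite sign, which did not pass the adjusted threshold. Against the lipogenesis mean Pck1 gave r = -0.67 (rho = -0.71, exact permutation p = 0.0635, adjusted p = 0.180, n = 8), with -0.76 within genotype, -0.76 within slide and -0.21 without the 2 farthest arrays. Against Pdhb it gave -0.73 (exact permutation p = 0.0341, adjusted p = 0.140) and -0.82 within genotype. Pdk4 against the lipogenesis mean gave -0.36 (rho = -0.33, exact permutation p = 0.372, adjusted p = 0.480), with 0.03 within genotype and -0.47 within slide. Pdk3 against it gave -0.54 (rho = -0.50, exact permutation p = 0.170, adjusted p = 0.295). For Pdk3 the value was -0.39 within genotype, -0.52 within slide and 0.11 without the 2 farthest arrays.

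**Figure D3:**
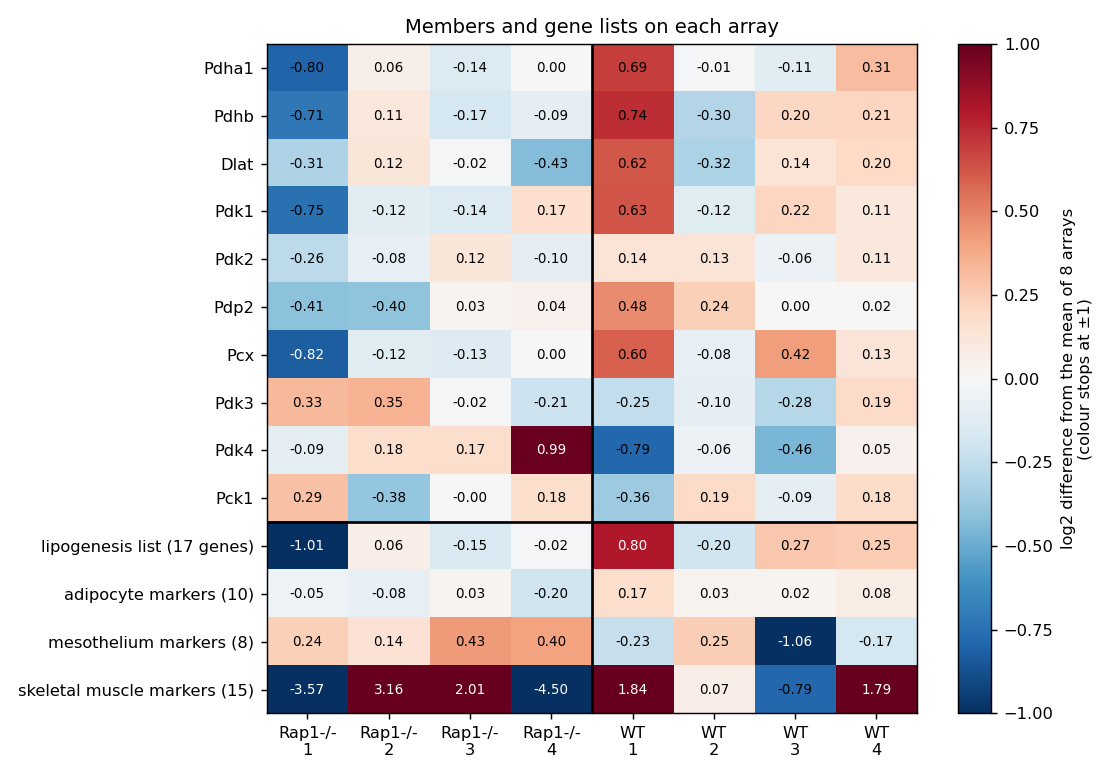
Each row is a member (top) or the mean of a gene list (bottom), each column an array, and each cell its log2 difference from the mean of the 8 arrays (colour stops at ±1). Pdha1, Pdhb, Pdk1 and Pcx are lowest on Rap1-/- replicate 1 and highest on WT replicate 1 together with the lipogenesis list, whereas Pdk4 peaks on Rap1-/- replicate 4.

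**Figure D4:**
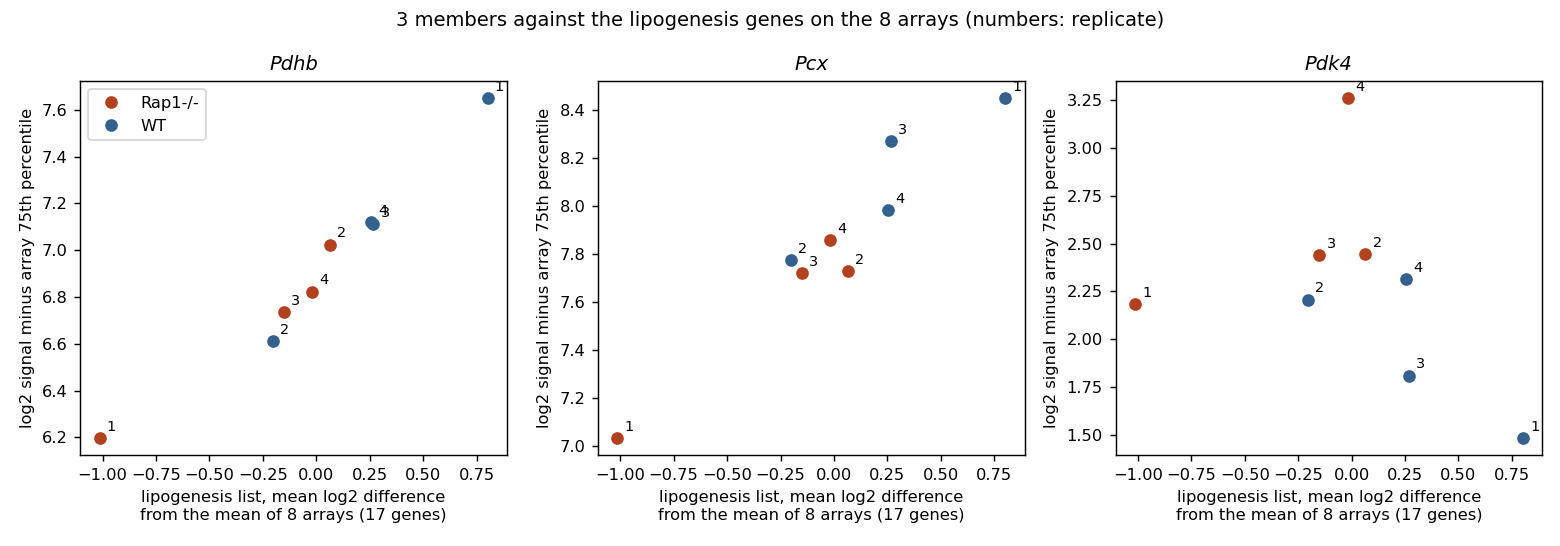
Pdhb, Pcx and Pdk4 (y axes: log2 signal minus the array's 75th percentile) against the mean of 17 lipogenesis genes on each array (x axis: log2 difference from the mean of the 8 arrays), points numbered by replicate. Pdhb and Pcx rise with the lipogenesis mean across both genotypes, and Pdk4 shows no such line.

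The balance of Pdk4 to the other members was described within arrays, a measure chosen after the values had been seen and therefore given with no test. For each array the Pdk4 value minus that of another member was centred over the 8 arrays, so only differences between arrays count. For Pdk4 minus Pdha1 the centred values were 0.71, 0.12, 0.31 and 0.99 in Rap1-/-, against -1.47, -0.05, -0.35 and -0.27 in WT. For Pdk4 minus Pcx they were 0.73, 0.30, 0.30 and 0.99 in Rap1-/-, against -1.38, 0.02, -0.88 and -0.08 in WT. The genotypes did not overlap in either. They did not overlap for 5 of the 9 pairings, those with Pdha1, Pdk1, Pdk2, Pdp2 and Pcx, and overlapped for Pdhb, Dlat, Pdk3 and Pck1. Of all other genes, 13.8% did not overlap when set against Pdk4 in this way. The narrowest of the 5 gaps was between 0.05 as the lowest Rap1-/- value and -0.06 as the highest WT value, for Pdk2.

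The neighbouring pathways were described by list, to be read beside all genes. Of all genes, 59.9% had the lower mean in Rap1-/-, 4.98% an unadjusted limma p under 0.05 and 3.26% no overlap between genotypes. No list gene passed an adjusted p of 0.05 in the limma fit. Of the 17 genes of citrate export and lipogenesis, 17 had the lower mean in Rap1-/- (median -0.67, 4 at an unadjusted p under 0.05). The median was -0.42 without Rap1-/- replicate 1 and -0.46 with E1A scaling. Me1, the malic enzyme that makes NADPH and pyruvate, averaged 7.14 ± 0.68 in Rap1-/-, against 8.09 ± 0.59 in WT (SD, n = 4 each, limma adjusted p = 0.874). Acaca, acetyl-CoA carboxylase, read 6.86, 8.09, 8.08 and 8.16 in Rap1-/-, against 9.02, 8.19, 8.73 and 8.32 in WT, without overlap. Tkt, transketolase of the pentose phosphate route, averaged 8.25 ± 0.53 and 8.93 ± 0.34.

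Of the 12 genes of pyruvate supply and lactate exchange, 11 had the lower mean in Rap1-/- (median -0.24, and -0.03 with E1A scaling). The monocarboxylate transporter Slc16a1 averaged -3.45 ± 0.34 in Rap1-/-, against -2.77 ± 0.44 in WT (SD, n = 4 each, limma adjusted p = 0.874), again without overlap. Among the list genes named below, Slc25a13, Glul, Pygl, Pfkl and Fabp4 did not overlap either, Slc25a13 with the higher mean in Rap1-/-. Mpc1 and Mpc2, the paired subunits of the carrier that brings pyruvate into the mitochondrion, differed by -0.45 ± 0.26 and -0.51 ± 0.24 (SE). Of 17 TCA cycle genes, 15 had the lower mean (median -0.12), with Cs, citrate synthase, at -0.28 ± 0.14 and Sdha, of succinate dehydrogenase, at -0.22 ± 0.10. None of the 17 had an unadjusted p under 0.05. The TCA median turned to 0.09 with E1A scaling, was -0.04 after quantile normalisation as well as in the deposited log2 table, and lay between -0.21 (without WT replicate 2) and -0.06 (without WT replicate 1) when single arrays were left out.

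Glyceroneogenesis and gluconeogenesis genes other than Pck1 were split, 5 of 11 lower and 6 higher (median 0.03, and 0.24 with E1A scaling). Slc25a13, the aspartate-glutamate carrier, averaged -2.65 ± 0.24 in Rap1-/-, against -3.02 ± 0.22 in WT, Gpd1, which makes glycerol phosphate, averaged 7.83 ± 0.33 and 8.26 ± 0.37, and G6pc averaged -3.29 ± 0.21 and -2.71 ± 0.53 (SD, n = 4 each, limma adjusted p = 0.874 for each).

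The regulators and co-targets known to go with Pdk4 were also read. Of 13 receptors and factors that induce Pdk4, 11 had the lower mean in Rap1-/- (median -0.11). Pparg, the adipocyte nuclear receptor, differed by -0.28 ± 0.11 (SE, limma adjusted p = 0.874), the coactivator Ppargc1a by -0.31 ± 0.15 and Ppargc1b by -0.29 ± 0.15. The 18 fasting, PPAR and FOXO targets were split 9 against 9 (median 0.01), with Ddit4 at -0.76 ± 0.43, Insr at -0.18 ± 0.11 and Trib3 at 0.23 ± 0.19. Of 10 glucocorticoid targets, 7 had the lower mean (median -0.12), with glutamine synthetase Glul at -0.53 ± 0.18, Mt1 at -0.19 ± 0.13 and Zbtb16 at 0.36 ± 0.19. Of 14 HIF targets, 8 had the lower mean (median -0.02), with Vegfa at -0.22 ± 0.12 and Ankrd37 at 0.32 ± 0.19. Of 14 genes of insulin action and glucose use, 10 had the lower mean (median -0.13), with the glycogen phosphorylase Pygl at -0.64 ± 0.24, Pfkl at -0.46 ± 0.20 and Gys1 at -0.33 ± 0.18. The all-gene median was -0.04. The direction of these small medians depends on the scaling. With E1A scaling, which put the all-gene median at 0.18, they were 0.10 for the receptors and factors, 0.22 for the fasting targets, 0.09 for the glucocorticoid targets, 0.19 for the HIF targets and 0.08 for insulin action. With quantile normalisation the receptors and factors were at -0.05 and the HIF targets at 0.04, and without Rap1-/- replicate 1 the glucocorticoid targets were at 0.06 and the fasting targets at -0.03.

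Markers of other cells moved across the arrays beside the members, and in bulk tissue fewer cells of a type and less RNA per cell cannot be told apart. Of the 15 skeletal muscle markers, 14 had the lower mean in Rap1-/- (median -1.30, 0 at an unadjusted limma p under 0.05). Their mean ranged from -2.10 to 5.56 in Rap1-/- and from 1.62 to 4.24 in WT, with Rap1-/- replicates 1 and 4 lowest. Tnnc2 averaged 4.70 ± 3.94 in Rap1-/-, against 6.28 ± 1.30 in WT. Myl1, the 1 marker without the lower mean, averaged 5.60 ± 1.53 and 5.59 ± 0.83. Pcx correlated with the muscle mean at r = 0.39 and Pdk4 at -0.42 (exact permutation p = 0.349 and 0.312, n = 8). With a muscle covariate in the fit, Pcx differed by -0.50 and Pdk4 by 0.57, and 0 of 10 members had an unadjusted p under 0.05. Mesothelium markers had the higher mean in 8 of 8 (median 0.63, 2 at an unadjusted limma p under 0.05). The list mean ranged from 1.61 to 1.89 in Rap1-/- and from 0.41 to 1.71 in WT. Msln averaged 4.01 ± 0.27 and 3.22 ± 0.84, and Wt1 3.00 ± 0.29 and 2.78 ± 0.28. Fibroblast and preadipocyte markers were higher in 7 of 8 (median 0.24, range 4.47 to 4.60 in Rap1-/- and 3.84 to 4.69 in WT, Dcn at 8.37 ± 0.13 and 8.20 ± 0.19). Adipocyte markers were lower in 9 of 10 (median -0.24, range 7.37 to 7.60 in Rap1-/- and 7.60 to 7.74 in WT). Of these 10, 4 had an unadjusted limma p under 0.05, against 4.98% of all genes. Fabp4 averaged 9.39 ± 0.10 and 9.67 ± 0.10, and Cfd 9.65 ± 0.17 and 9.86 ± 0.25. In the main scaling the E1A controls differed by -0.21 (Rap1-/- minus WT). Scaling to them moves the median of every marker list upward by that amount, which is close to the size of the adipocyte median. Of the other lists, macrophage markers had the higher mean in 5 of 7 and endothelial markers in 1 of 6. Brown fat markers had the higher mean in 2 of 7, and of 6 ovary or epididymis markers 4 were not well above background on any array. Against the adipocyte marker mean, Pdk4 gave r = -0.86 (rho = -0.62, exact permutation p = 0.0131, adjusted p = 0.103, n = 8), with -0.74 within genotype and -0.87 within slide, but -0.19 without the 2 farthest arrays and 0.28 with E1A scaling. Dlat gave 0.77 against it (exact permutation p = 0.0258, adjusted p = 0.138), and 0.24 without the 2 farthest arrays. Against the mesothelium mean Pdk4 gave 0.63 and Pcx -0.61 (exact permutation p = 0.124 and 0.130). The part of these cells in the members' differences was not tested.

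By Pearson correlation over the 8 arrays, among genes with a symbol, the 5 most like Pdk4 were Lrrc42 (r = 0.99), Agr2 (0.97), Tagap (0.97), Bmp1 (0.96) and Serpinb6b (0.94). Among those most like Pcx were Acaca (r = 0.99), Elovl6 (0.98), Naprt (0.98) and Lrrc24 (0.97). Acaca and Elovl6, a fatty acid elongase, belong to the lipogenesis list. Scaled to E1A, the value for Naprt was 0.46, while Acaca and Elovl6 gave 0.98 and 0.99. The genes named here were well above background on all 8 arrays. As the genes were picked by this value from all those tested, the values describe likeness only.

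**Figure D5:**
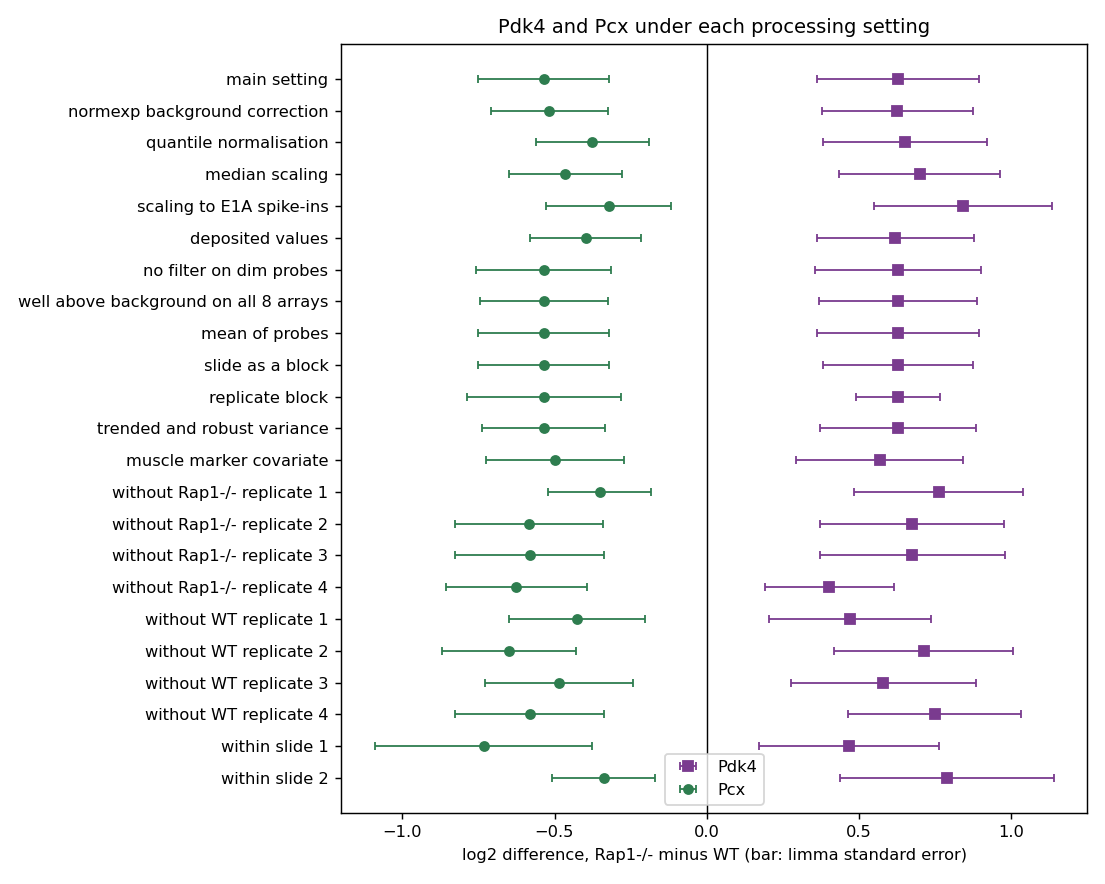
Log2 difference (x axis: Rap1-/- minus WT, bars giving the limma standard error) of Pdk4 and Pcx under the main setting and each of 22 alternatives (rows). Pdk4 stays above 0, from 0.40 to 0.84, and Pcx below 0, from -0.73 to -0.32, in every row.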

How the data were processed

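Total RNA of gonadal white fat was labelled with Cy3 and hybridised to one-colour Agilent mouse arrays. RNA integrity numbers were 6.5 to 8.5 per the labels. Feature Extraction 10.7.3.1 (per the file headers; the study's methods give another version) turned the scans into spot signals on a design built on mm9. In the deposited scanner files the processed signal, the median signal and the local background are linear intensity values with quality flags. The series table the authors deposited holds log2 values, which quantile normalisation after normexp (offset 50) matched within a median of 0.00143 or less per array. Each column's median was 6.56 to 6.57. The authors' notes name limma and no normalisation.

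The log2 processed signal had each array's 75th percentile subtracted, and unflagged replicate spots were averaged. A probe was kept if it was well above background on 4 or more of the 8 arrays, whatever their genotype (33983 probes). They were named through RefSeq accessions (26056 of 55681 probes), and the brightest stood for a gene, leaving 25065 genes or features. Genotypes were compared with limma 3.58.1 (R 4.3.3), without covariates, with Benjamini-Hochberg adjustment over all of them and a threshold of 0.05. Nothing in the labels says that samples are separate animals, so p-values measure the spread between these samples. Their number limits the precision. Single values were tested by exact two-sided permutation. Correlations used all 40320 orders of the arrays. The fit was tested on simulated data.

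The members, the gene lists and the tests were chosen with earlier results of these data known. Named were all members, Terf2ip, up to 3 genes per pathway list with the smallest limma p, up to 2 per marker list with the highest mean, and the 5 genes most like Pdk4 and Pcx; 1 gene that this rule names is not reported here. Other settings tried were normexp, 3 other scalings, the deposited log2 table, 2 filters, other probes, slide or replicate blocks, another variance model, a muscle covariate, single slides and leaving out each array. Same-numbered arrays did not deviate together (correlations from -0.22 to -0.13). This gives no sign that replicate numbers pair the arrays, but it cannot exclude pairing, and same-numbered arrays shared a slide. Promoter sequences came from RefSeq in GRCm38.p6; the probes were given no coordinates, because the array design is in mm9, and the genes between Pdp2 and Terf2ip were counted in the RefSeq table. Figures used matplotlib 3.10.9.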

Additional observations from a re-analysis of the deposited data

Results flagged for a closer look

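Among 64 sets of 4 arrays (each probe of the members and of Terf2ip and each list mean, in each genotype), 2 held an array that stood apart by Dixon's criterion at the 95% level, which chance alone does in about 5% of sets. Pcx in Rap1-/- was one, with replicate 1 at 7.03 and the other 3 arrays between 7.72 and 7.86. The other was the mean of the HIF targets in Rap1-/-, with replicate 1 at -0.045 from the mean of the 8 arrays and the other 3 at -0.01, a list with a small spread in that genotype (SD 0.02, n = 4).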

How the results depend on the processing

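0 of 10 members passed an adjusted p of 0.05 in the main fit and under every alternative that was run, the lowest member adjusted p being 0.534. Of all genes, 1 passed in the main fit, the deleted Terf2ip. With normexp background correction, with the deposited values and with a trended and robust variance 2 passed. With single arrays left out the count stayed at 1. With the replicate number as a block (replicate block) 1 gene and 0 members passed, and 1 member had an unadjusted p under 0.05. That count, 3 in the main fit, was 4 without WT replicate 2, 1 without Rap1-/- replicate 1 or 2 or WT replicate 3, with quantile normalisation, with E1A scaling or with no filter on dim probes, and 0 without WT replicate 1, within slide 2 or with the muscle covariate. The direction was the same in all alternatives for 6 of 10 members. Pdk2 turned to 0.057 with E1A scaling, Pdk3 to -0.074 and Pdp2 to 0.026 within slide 2, and Pck1 to -0.036 with the muscle covariate and to between -0.074 and -0.012 without Rap1-/- replicate 1, Rap1-/- replicate 4 or WT replicate 1. The cause was not tested. E1A scaling moved the median of all genes to 0.18, against -0.04 in the main fit. Relative to the all-gene median, Pcx was -0.50 and Pdk4 0.67, which scaling by 1 constant per array cannot change, and with quantile normalisation they were -0.38 and 0.65. With E1A scaling 6 of 10 members had the lower mean and 15.6% of all genes did, and with median scaling 41.5% of all genes did.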
